A study of Oryctolagus cuniculus with 34 samples.

Results

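DLK1 and the genes of the Notch pathway were followed across 34 bulk RNA-seq libraries from rabbits, all of the supraspinatus (one of the muscles of the rotator cuff). The set consisted of 9 named genes, of which 8 had a row among the 18176 genes of the count tables: the non-canonical ligand DLK1, the receptors NOTCH2 and NOTCH3, the ligands JAG1 and DLL4, and the target genes HES1, HEY1 and HEYL. NOTCH1 had no row under that name and was not analysed here. DLK1 had been picked because its counts were higher with the gel than after injury alone in the short term, so that contrast is given below as a description for every member, with no test. For DLK1 all contrasts are described only, since it entered the fits through the libraries it was picked on.

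In the short term 5 muscles were matrix gel treated, 5 were repair only treated and 4 were labelled injury only. The long-term groups were matrix gel treated (5 muscles), repair only treated (5) and uninjured (10). The series' design text describes the gel groups as repair plus gel, so the gel is an addition to a repair. The labels give no strain, age or duration for either term, and do not say whether replicate libraries are different rabbits, so p-values measure only the spread between these libraries. Every short-term group carried an injury, and no uninjured muscle was sampled in the short term.

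Notch receptors are activated by membrane-bound ligands of the Jagged and Delta-like families on a neighbouring cell. Cleavage then releases the receptor's intracellular domain, which joins RBPJ and Mastermind-like coactivators in the nucleus and switches on repressors of the HES and HEY families. In skeletal muscle the pathway is known for keeping satellite cells, the muscle stem cells, undifferentiated, and for the growth of vessels and the identity of their mural cells. DLK1 is a paternally expressed imprinted gene whose product resembles the Delta-like ligands without their receptor-binding domain. It is known from mice as a marker of fat precursors and as a gene of developing and regenerating muscle.

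Library totals were 26904529 to 32313295 counts in the short term and 12582302 to 15019158 in the long term. Levels are given as CPM, a gene's count scaled to a common library total over the named genes, and they are compared for 1 gene between samples, not between genes, since no gene lengths were used. Of the counts from 1 to 10, 74.3% to 79.2% were even numbers in short-term libraries and 39.9% to 42.7% in long-term libraries. Low short-term counts came mostly in steps of 2, so the short-term totals cannot be set against the long-term totals as depth. Injury replicate 3 and repair replicates 4 and 5 of the short term and gel replicate 1 of the long term stood apart, with mean correlations of 0.916, 0.884, 0.896 and 0.922 with the rest of their groups. Summed fibro-adipogenic progenitor and fibroblast markers (8 of 8 in the tables) were 9908 CPM in that injury library and 801 CPM at the lowest in its group, and they were 884 CPM in repair replicate 4 and 83015 CPM in repair replicate 5, around a repair median of 10236 CPM. Fibre markers (7 of 10 in the tables) summed to between 62130 and 209863 CPM in every library, and none of the 7 was at 0 in any short-term library.

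DLK1 RNA was present after gel treatment in the short term and near 0 in every long-term library. The 5 gel libraries of the short term held 2.85, 3.08, 5.44, 1.94 and 0.923 CPM, from counts of 86, 98, 150, 54 and 26. The 5 repair libraries held 0.187, 1.15, 0.312, 0.599 and 0.392 CPM, from counts of 6, 34, 10, 18 and 12. The 4 injury libraries held 0.0632, 0.124, 0.149 and 0.0641 CPM, from counts of 2, 4, 4 and 2. All gel libraries lay above all injury libraries, as the choice of the gene fixes (3.12% of genes lay so), and 4 of the 5 also lay above the highest repair library. Gel replicate 3 was the highest and gel replicate 5 overlapped with repair replicate 2.

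Group means were 2.84 ± 1.68 CPM with the gel, 0.527 ± 0.377 CPM with repair only and 0.0999 ± 0.0431 CPM with injury only (SD, n = 5, 5 and 4). The ratio of means was 28.5 for gel over injury, 5.39 for gel over repair and 5.28 for repair over injury. These ratios share groups and are not independent of one another. The fitted log2 differences were 4.55 (SE 0.69) for gel minus injury, 2.51 (SE 0.54) for gel minus repair and 2.04 (SE 0.65) for repair minus injury. The repair and injury libraries did not overlap, with repair above, as held for 1.04% of all 13526 genes tested. Nothing is read from this placement, because DLK1 was picked on the same injury libraries. The injury values rest on 2 to 4 counts each, in libraries whose low counts come in steps of 2, so their order within the group is not resolved.

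**Figure D1:**
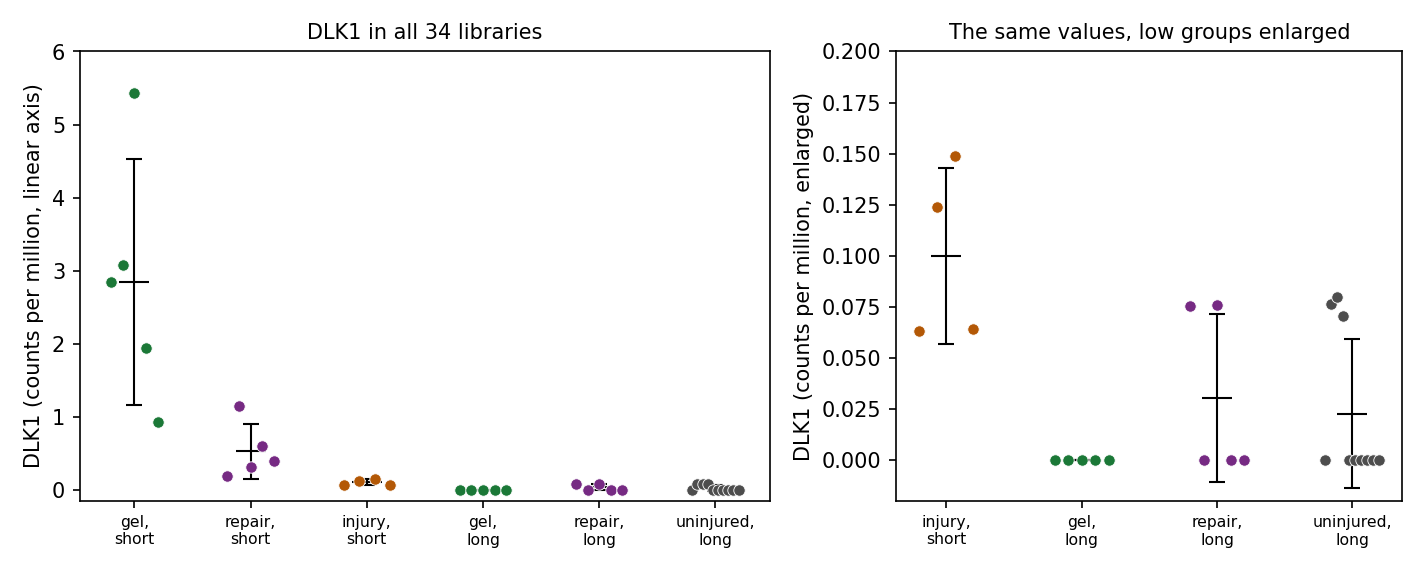
DLK1 in CPM (linear axes) for each of the 34 libraries, by treatment and term; horizontal bars are group means and vertical bars 1 SD. The gel libraries of the short term lie between 0.923 and 5.44, all above the injury libraries, and the enlarged panel shows the injury and long-term groups, none above 0.149.

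In the long term DLK1 had 0 counts in all 5 gel libraries. In the repair group 2 of the 5 libraries had 1 count each, and in the uninjured group 3 of the 10 had 1 count each, for 5 counts over the 20 long-term libraries. The highest long-term value, 0.0795 CPM, was thus a single count, and the 15 libraries at 0 cannot be told apart from those with 1 count. The short-term gel level was at least 65.2-fold higher than the long-term gel level, taking 3 counts over the whole group (0.0436 CPM) as the limit that a count of 0 allows. In repair libraries DLK1 was at 0 to 0.0757 CPM in the long term, against 0.187 to 1.15 CPM in the short term, with a fitted log2 difference of -3.63 (SE 0.81). The terms did not overlap, as held with the same sign for 10.9% of genes. Pooled repair CPM was 17.1-fold higher in the short term, with a 95% interval of 4.42 to 146 that covers counting error only. No test is given for it, because the gene passed the low-count filter of the fit over 34 libraries through the gel libraries in which it was high. It did not pass that of the long-term fit.

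The term of a library cannot be told apart from its depth or from the step in which its counts came, so the long-term against short-term values of DLK1 carry both. In bulk tissue, fewer cells of a type and less RNA per cell cannot be told apart. Satellite cell markers (5 of 6 in the tables, none at 0 in the short-term libraries) summed to 41.2 to 93.0 CPM with the gel, 18.99 to 194 CPM with repair only and 27.1 to 126 CPM with injury only. Fibro-adipogenic markers summed to 3221 to 9827 CPM with the gel, 884 to 83015 CPM with repair only and 801 to 9908 CPM with injury only, and adipocyte markers (7 of 9) to 233 to 1275, 465 to 1633 and 668 to 4669 CPM in the same groups. Each of these sums overlaps between all 3 groups, and their part in the level of DLK1 was not tested.

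The 7 canonical Notch genes did not pass edgeR's adjusted threshold in any comparison of treatments. At an unadjusted p under 0.05 stood HEYL for gel against repair and NOTCH2 for repair against injury in the short term, and DLL4, HEYL and NOTCH2 both for gel against repair and for repair against uninjured muscle in the long term. In the short term 0 of the 7 were called between gel and repair; the background was 0% of 13526 genes called, with 1404 genes at an unadjusted p under 0.05. Between repair and injury the counts were again 0 of 7 against a background of 0%, with 1973 genes at an unadjusted p under 0.05. DESeq2 called 127 genes for gel against repair and 231 for repair against injury, and limma voom with sample weights called 3 and 4716. In the long term 0 of the 7 were called between gel and repair (background 0%, 1648 genes at an unadjusted p under 0.05, 7 called by DESeq2 and 0 by limma voom). The same count of 0 was found for gel against uninjured muscle (background 0.00862%) and for repair against uninjured muscle (background 1.01%). The difference between the long-term and the short-term gel effect, tested as an interaction, passed for 0 of the 7 (background 0.0155%).

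**Figure D2:**
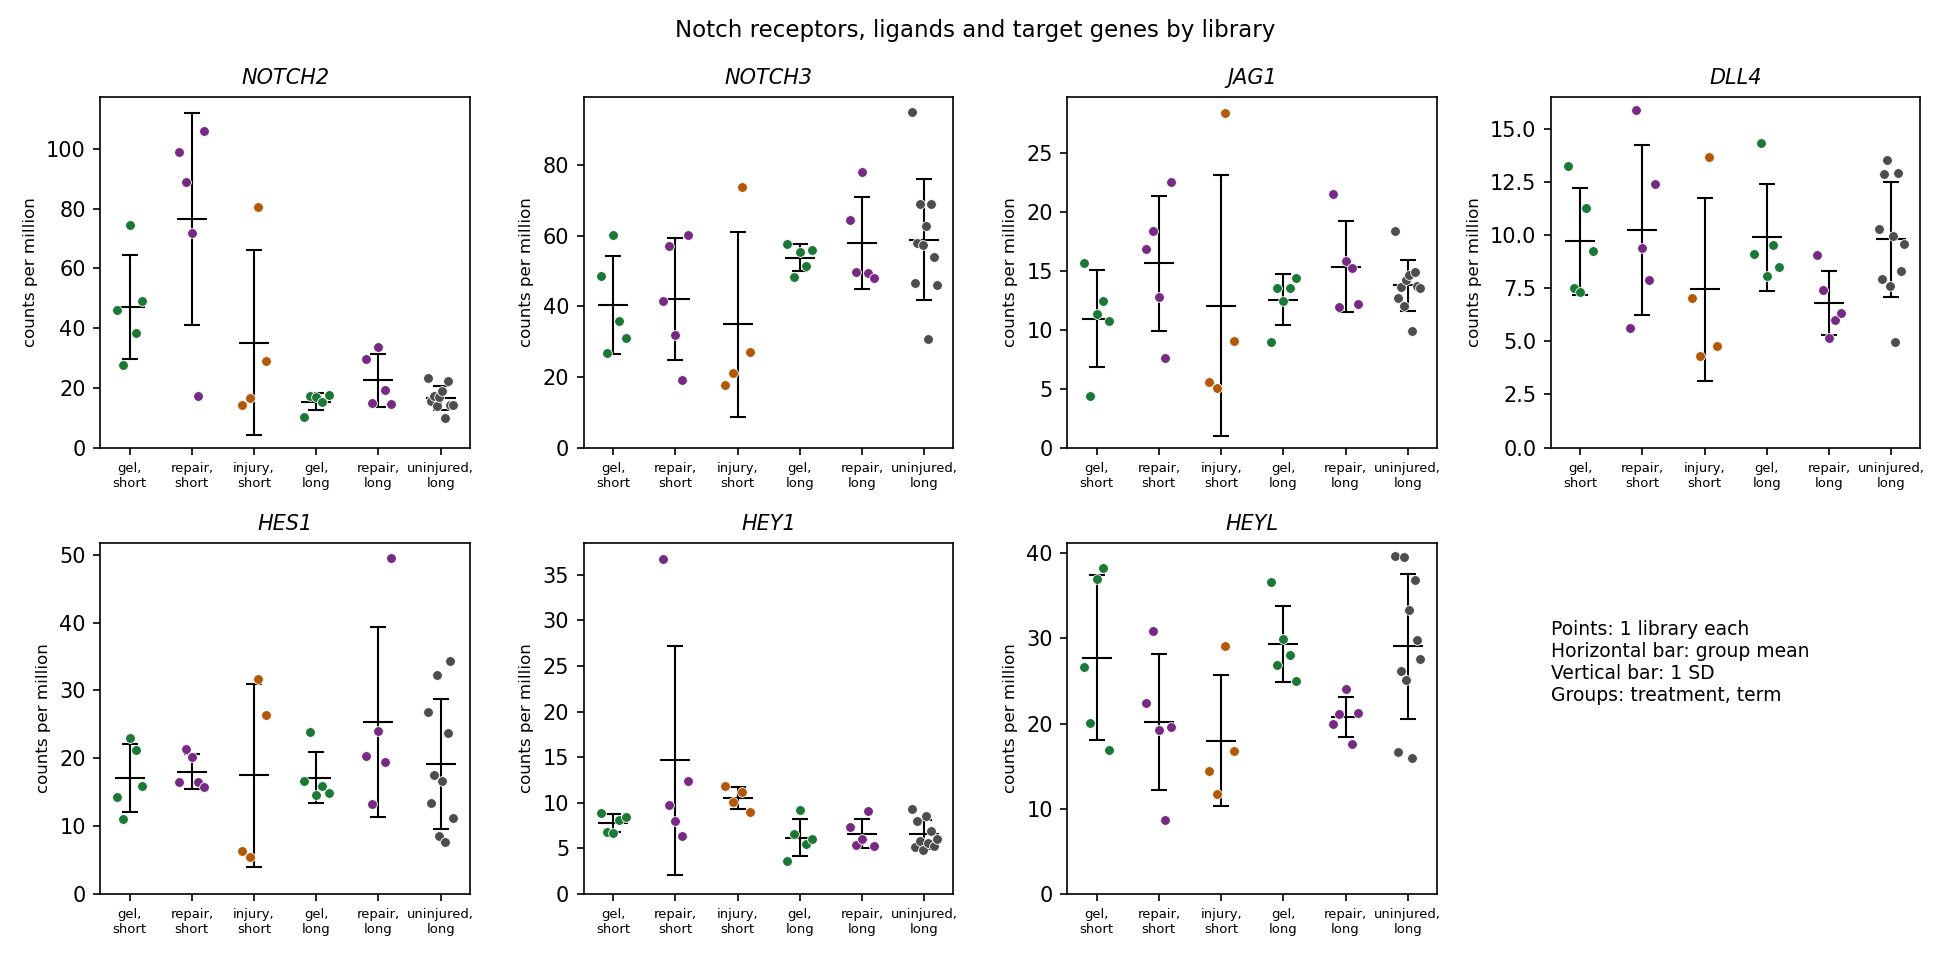
CPM (linear axes from 0) of the 7 canonical Notch genes in each of the 34 libraries, by treatment and term, with group means and 1 SD. NOTCH2 reaches at most 33.8 in the long-term groups, while its short-term groups reach 74.5, 106 and 80.4; the other genes overlap between treatments except HEYL in the long term and HEY1 between gel and injury in the short term.

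Group means of neighbouring rank were mostly closer than their spread. Ordering the 6 groups by mean CPM, each neighbouring pair differed by less than the larger of its SDs for NOTCH2, NOTCH3, JAG1, DLL4, HES1 and HEYL. HEY1 had 1 exception, injury above gel in the short term. DLK1 had 3, at gel over repair, repair over injury and injury in the short term over repair in the long term.

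NOTCH2, a receptor expressed by satellite cells and macrophages among others, had its highest mean in short-term repair. Short-term levels were 46.1, 27.6, 74.5, 38.5 and 49.0 CPM with the gel, 98.8, 89.1, 72.0, 17.1 and 106 CPM after repair only, and 14.4, 16.6, 80.4 and 29.0 CPM with injury only. Apart from repair replicate 4 and injury replicate 3, the repair libraries lay above the injury libraries, and the gel libraries spanned the gap between them. The fitted difference was 0.85 for repair minus injury (SE 0.38, edgeR adjusted p = 0.337, 95% interval of the log2 difference 0.04 to 1.66) and -0.44 for gel minus repair (SE 0.35, adjusted p = 0.669). Leaving out 1 library at a time, repair replicate 5 among them, it was 0.67 to 1.18 (adjusted p from 0.0666 to 0.639). Without both repair replicate 4 and injury replicate 3 the repair minus injury difference was 1.39 (adjusted p = 0.00429), in a fit that called 33.3% of all genes. With sample weights in limma voom it was 1.35 (adjusted p = 0.00556; 34.9% of genes called). Macrophage markers (7 of 9 in the tables) summed to 32.5 to 249 CPM with the gel, 8.18 to 248 CPM with repair only and 8.02 to 84.4 CPM with injury only. Their lowest repair library was replicate 4 and their highest injury library replicate 3, the same libraries as for NOTCH2. This was not particular to macrophage markers. The same libraries were the extremes of endothelial (287 and 989 CPM), mural (373 and 1164 CPM), fibro-adipogenic (884 and 9908 CPM) and satellite cell sums (18.99 and 126 CPM). Fibre markers ran the other way, at 188892 CPM in repair replicate 4 and 87610 CPM in injury replicate 3. The part of these sums in the level of NOTCH2 was not tested.

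In the long term NOTCH2 was at 10.4 to 17.5 CPM with the gel, 14.6 to 33.8 CPM with repair only and 9.78 to 23.2 CPM in uninjured muscle, with overlap between all groups. The repair minus uninjured difference was 0.39 (SE 0.16, adjusted p = 0.326) and the gel minus uninjured difference was -0.00 (SE 0.16, 95% interval -0.34 to 0.33).

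NOTCH3, the receptor of vascular smooth muscle cells and pericytes, did not separate the treatments. Its short-term levels were 48.6, 26.7, 60.2, 35.7 and 30.9 CPM with the gel, 41.5, 57.0, 31.8, 19.1 and 60.3 CPM after repair only, and 17.6, 21.1, 73.7 and 27.2 CPM with injury only. Injury replicate 3 again stood above the other injury libraries, and repair replicate 4 below the other repair libraries. Long-term levels were 48.3 to 57.7 CPM with the gel, 47.9 to 77.9 CPM with repair only and 30.8 to 95.05 CPM in uninjured muscle. The gel minus uninjured log2 difference was 0.01 (95% interval -0.30 to 0.33).

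JAG1, a Notch ligand of endothelial and mural cells, and DLL4, the Delta-like ligand of sprouting endothelium, also overlapped between the short-term groups. JAG1 was at 4.37 to 15.7 CPM with the gel, 7.58 to 22.6 CPM with repair only and 5.08 to 28.4 CPM with injury only. DLL4 was at 7.32 to 13.2 CPM with the gel, 5.62 to 15.9 CPM with repair only and 4.33 to 13.7 CPM with injury only. For both ligands the highest injury value was that of replicate 3. Endothelial markers (9 of 10 in the tables) summed to 989 CPM in that library, and to 236 CPM in the lowest of its group, against 269 to 734 CPM with the gel and 287 to 1088 CPM with repair only. Their part in the ligands' levels was not tested.

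In the long term DLL4 had its lowest mean in repaired muscle. The gel libraries held 9.10, 14.3, 8.06, 9.52 and 8.50 CPM, the repair libraries 9.08, 7.44, 5.15, 6.00 and 6.35 CPM, and the uninjured libraries 4.99 to 13.5 CPM with a median of 9.77 CPM. Gel and repair overlapped through repair replicate 1. The gel minus repair difference was 0.68 (SE 0.22, adjusted p = 0.302) and the repair minus uninjured difference was -0.54 (SE 0.19, adjusted p = 0.229).

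By a code in the names of the files, every operated muscle of the long term has an uninjured partner. The mean DLL4 of those uninjured muscles differed with the treatment of the partner, while their ranges overlapped, and the difference was not tested. The 5 uninjured muscles linked to gel-treated ones averaged 11.8 ± 1.85 CPM of DLL4, with a range of 9.58 to 13.5, and the 5 linked to repair-only ones averaged 7.82 ± 1.89 CPM, with a range of 4.99 to 10.3 (SD, n = 5 each). With the code as a block, the gel minus repair difference of DLL4 was 0.16 (SE 0.20, adjusted p = 0.806) and the repair minus uninjured difference -0.26 (SE 0.15, adjusted p = 0.744). Muscle by muscle, on CPM by library totals, DLL4 was below its linked uninjured muscle in 4 of 5 gel pairs and in 4 of 5 repair pairs. In the gel pairs the mean log2 difference was below 0 for every canonical Notch gene, from -0.14 for JAG1 to -0.26 for DLL4. The gel count is thus not read as particular to DLL4. In the fit with the code as a block, its gel minus uninjured difference was -0.11 (SE 0.14). Over all genes, deviations from group means correlated above 0.1 in 4 of 5 repair pairs but 2 of 5 gel pairs. The link by code is thus less sure for the gel.

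Among the target genes, HEYL showed the same arrangement. HEYL, a HEY-family repressor of mural cells and satellite cells, was at 36.6, 26.8, 29.97, 28.1 and 25.02 CPM with the gel in the long term, against 19.97, 21.2, 24.1, 17.6 and 21.2 CPM with repair only. It was the single member of the 7 tested whose gel libraries all lay above the repair libraries, where 0.215% of 11605 genes did so. The difference was 0.66 (SE 0.20), with an edgeR adjusted p of 0.302 over all genes, and the adjusted p ranged from 0.150 to 0.757 over the alternative settings. The linked uninjured muscles averaged 32.7 ± 5.77 CPM of HEYL for the gel animals' codes and 25.5 ± 9.84 CPM for the repair codes (SD, n = 5 each). These overlap widely, at 26.1 to 39.5 CPM and 16 to 39.7 CPM. With the code as a block the gel minus repair difference was 0.29 (SE 0.29, adjusted p = 0.757). On CPM, HEYL was below its linked uninjured muscle in 4 of 5 gel pairs and 3 of 5 repair pairs, with the same limits for the gel pairs. In the fit with the code as a block, its gel minus uninjured difference was 0.005 (SE 0.21).

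**Figure D3:**
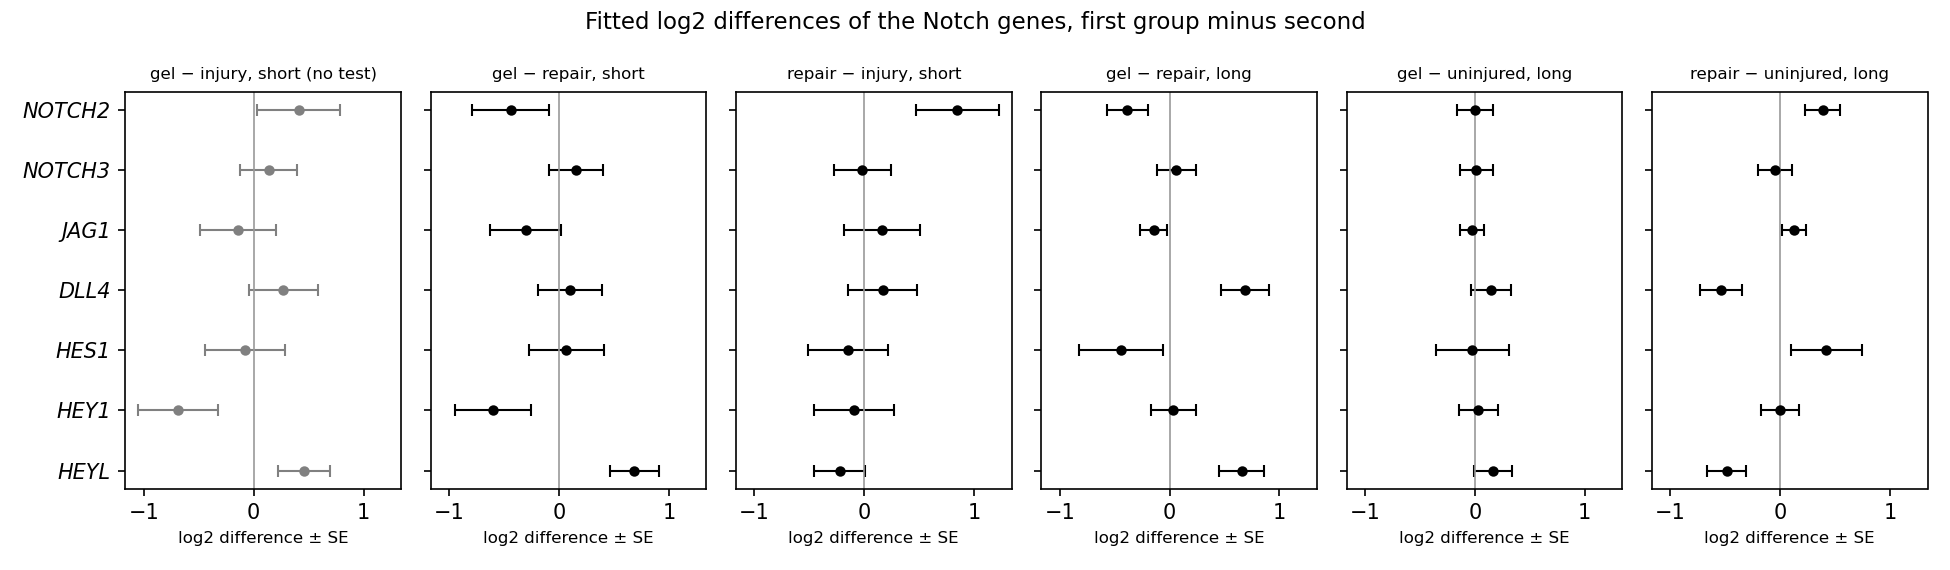
Fitted log2 differences with standard errors (horizontal bars) of the 7 canonical Notch genes in 6 comparisons of treatments, first group minus second. DLL4 and HEYL stand at 0.68 and 0.66 for gel minus repair in the long term, and no point passed the adjusted threshold; the grey panel is a description, since DLK1 was chosen on it.

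In the short term HEYL was at 26.7, 20.03, 36.9, 38.2 and 16.9 CPM with the gel, 22.4, 30.9, 19.2, 8.61 and 19.6 CPM after repair only, and 14.5, 11.7, 29.1 and 16.8 CPM with injury only. The groups overlapped. The gel minus repair difference was 0.69 (SE 0.22, adjusted p = 0.413).

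HEY1, a HEY-family repressor with endothelial and satellite cell expression, was in the short term at 8.83, 6.79, 6.71, 8.10 and 8.41 CPM with the gel, 36.8, 9.75, 7.96, 6.35 and 12.4 CPM after repair only, and 11.8, 10.1, 11.2 and 8.97 CPM with injury only. The gel libraries all lay below the injury libraries, with a fitted difference of -0.69 (SE 0.36). Nothing is read from this placement, because the contrast is the one DLK1 was picked on; 1.75% of genes lay below in that way. Repair replicate 1, at 36.8 CPM, set the repair mean of 14.6 ± 12.6 CPM (SD, n = 5). Without it the gel minus repair difference of HEY1 was -0.09, against -0.60 (SE 0.35, adjusted p = 0.561) with all libraries.

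HES1, a repressor induced by Notch receptors, did not separate the treatments. In the short term its 4 injury libraries held 6.32, 5.45, 31.7 and 26.3 CPM, while the gel libraries held 10.97 to 23.0 CPM and the repair libraries 15.7 to 21.4 CPM. Injury alone thus spanned the other groups on both sides. In the long term it was at 14.5 to 23.8 CPM with the gel, 13.3 to 49.5 CPM with repair only and 7.66 to 34.3 CPM in uninjured muscle.

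Between terms, NOTCH2 fell and NOTCH3 rose in the long term, in both treatments. In repair libraries NOTCH2 changed by -1.37 (SE 0.27, edgeR adjusted p = 0.00016) and NOTCH3 by 0.84 (SE 0.21, adjusted p = 0.00181). In gel libraries NOTCH2 changed by -1.26 (SE 0.27, adjusted p = 0.000348) and NOTCH3 by 0.80 (SE 0.21, adjusted p = 0.00235). NOTCH2 averaged 22.5 ± 8.75 CPM in the long term and 76.6 ± 35.6 CPM in the short term with repair only, and 15.4 ± 2.95 CPM in the long term and 47.1 ± 17.4 CPM in the short term with the gel (SD, n = 5 each). With the gel the terms of NOTCH2 did not overlap, as held with the same sign for 25.1% of genes. NOTCH3 averaged 57.9 ± 13.1 CPM in the long term and 41.9 ± 17.2 CPM in the short term with repair only, and 53.8 ± 3.804 CPM in the long term and 40.4 ± 13.8 CPM in the short term with the gel. All 4 of these calls held in each of the 10 fits that left out 1 library. The CPM of NOTCH3 overlapped between terms in both treatments. The fits, unlike CPM, also scaled the libraries by composition (TMM). The fitted rises of NOTCH3 were larger than those of its mean CPM, and the fitted falls of NOTCH2 smaller. No fit was run without a scaling of this kind, so the size of these differences depends on it.

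These counts must be read against a background in which 46.2% of 12935 genes were called between terms for repair and 48.3% for the gel. With repair 18.2% of genes rose and 27.9% fell, and with the gel 21.8% rose and 26.5% fell. Of the 7 canonical genes, 3 were called for repair, with NOTCH3 higher and NOTCH2 and HEY1 lower in the long term, and 3 for the gel, with NOTCH3 and JAG1 higher and NOTCH2 lower. These shares are close to those of all genes. HEY1 fell by 0.71 with repair (SE 0.28, adjusted p = 0.0342), and its difference was -0.18 with no call when repair replicate 1 of the short term was left out. That call held in 5 of the 10 fits that left out 1 library. JAG1 rose by 0.56 with the gel (SE 0.22, adjusted p = 0.0405), a call that held in 4 of the 10 fits that left out 1 library and stood at 0.38 without gel replicate 2 of the short term. Its CPM with the gel averaged 12.6 ± 2.14 in the long term and 10.9 ± 4.12 in the short term, with overlap. DLL4, HES1 and HEYL passed in neither treatment with all libraries; leaving out 1 library, HES1 passed in 2 of 10 fits for repair, and HEYL in 1 of 10 for repair and 2 of 10 for the gel. Repair and gel values for a term share no libraries, but term, sequencing depth and counting step coincide in both.

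Of 49 further genes of the pathway, 41 had a row, and 38 were tested in the short term, 36 in the long term and 37 between terms. In the treatment comparisons within a term, gel against injury apart, edgeR called 0 of them, with 3 to 8 at an unadjusted p under 0.05. Of all genes, 1404 and 1973 of 13526 stood at that p in the short term. In the long term 1360 to 1648 of 11605 did. Their median log2 difference for gel minus repair was -0.14 in the short term and -0.11 in the long term, beside -0.04 and -0.03 for all genes. For repair minus injury it was 0.24, with 30 of 38 above 0, beside 0.02 for all genes. For repair minus uninjured in the long term it was 0.10, beside -0.00 for all genes. For gel minus repair in the short term 29 of 38 lay below 0. That count and the 30 of 38 share the repair libraries. The share of all genes above or below 0 is not given, so nothing particular to the pathway is read from either.

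Between terms, 7 of the 37 rose and 8 fell with repair, where 18.2% of all genes rose and 27.9% fell, and 11 rose and 5 fell with the gel, where 21.8% rose and 26.5% fell. The calls are given by role as a description, and nothing particular to the pathway is read from them. Genes of the nuclear complex were called in both directions. The corepressor SPEN (1.15, SE 0.17) and the coactivator MAML3 (0.94, SE 0.27) rose with repair in the long term, and the corepressor TLE1 (-0.55, SE 0.17) fell. With the gel SPEN (1.61, SE 0.18), MAML3 (1.08, SE 0.27) and MAML1 (0.43, SE 0.15) rose, and the deacetylase HDAC1 (-0.45, SE 0.17) fell.

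Of the 4 tested genes for enzymes that add sugars to the receptors, with repair MFNG (-0.78), POGLUT1 (-0.49) and POFUT1 (-0.60) fell, and with the gel LFNG (-0.79) fell. Of the 9 genes of receptor cleavage, APH1A (-0.35) and PSEN2 (-0.66), both of the gamma-secretase complex, fell with repair. With the gel the protease FURIN (1.01) and the gamma-secretase subunit NCSTN (0.53) rose, while the sheddase ADAM17 (-0.82) fell. Among regulators the ubiquitin ligases ITCH (0.68), MIB1 (0.71) and NEURL1 (0.91) rose and the Notch antagonist NUMBL (-1.42) fell with repair. With the gel NEURL1 (1.63), AAK1 (0.47) and ITCH (0.54) rose and DTX4 (-1.14) fell. The target HEY2 rose in both, by 1.00 and 1.04, and the ligand DNER fell in both, by 3.16 and 2.74 on the log2 scale. All of these passed edgeR's adjusted threshold and all are contrasts of term, with the limits given above.

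Within the 10 uninjured muscles some members were correlated past the adjusted threshold and others did not pass it. By the code described above, 5 of these muscles were linked to gel-treated ones and 5 to repair-only ones. The correlations did not take that grouping into account. JAG1 followed NOTCH2 with Pearson r = 0.92 on log2 CPM (permutation, adjusted p = 0.00367) and Spearman rho = 0.92 (adjusted p = 0.0192), and r = 0.77 without the 2 muscles farthest from the NOTCH2 median. HEYL followed NOTCH3 with r = 0.87 (permutation, adjusted p = 0.00367) and rho = 0.85 (adjusted p = 0.027), and r = 0.80 without the 2 farthest muscles. These are 2 of 35 relations computed among the members and 2 marker sums, with p-values adjusted over the 35. NOTCH3 and JAG1 had r = 0.85 (permutation, adjusted p = 0.0254), but r = 0.19 without the 2 farthest muscles, so that relation rests on them. The ligands JAG1 and DLL4 had r = 0.50 (permutation, adjusted p = 0.156), NOTCH2 and DLL4 r = 0.64 (permutation, adjusted p = 0.0711), and HES1 and HEY1 r = 0.34 (permutation, adjusted p = 0.326).

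Mural markers (9 of 10 in the tables, 537 to 945 CPM in sum over these muscles) followed the same members, with r = 0.84 for NOTCH3, 0.85 for JAG1 and 0.84 for NOTCH2 (permutation, adjusted p = 0.0147, 0.0129 and 0.0147). Endothelial markers did so too, with r = 0.74 for NOTCH3, 0.72 for JAG1, 0.76 for NOTCH2 and 0.83 for HEYL (permutation, adjusted p = 0.0335, 0.0367, 0.0301 and 0.0188). Mural markers also followed HEY1 and HEYL, with r = 0.80 and 0.76 (permutation, adjusted p = 0.0254 and 0.0317). Endothelial markers also followed HEY1 and DLL4, with r = 0.72 and 0.69 (permutation, adjusted p = 0.0426 and 0.0482). Without the 2 farthest muscles, r over these relations ranged from 0.41 (HEYL with endothelial markers) to 0.75 (NOTCH2 with mural markers). HES1 passed with neither sum, and DLL4 not with the mural one. The part of both marker sums in the relations between the members was not tested. Uninjured replicate 1 was highest and replicate 7 lowest for NOTCH2, NOTCH3 and JAG1. These 2 muscles were also the ends of several other marker sums, though not of all. Replicate 1 had the lowest fibre sum (117819 CPM) and replicate 7 the highest (171235 CPM). Adipocyte and macrophage sums were highest in replicate 1 (1615 and 18.6 CPM) and lowest in replicate 7 (471 and 3.90 CPM). Only the mural and endothelial sums were correlated with the members, so nothing particular to vessels is read from these relations.

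**Figure D4:**
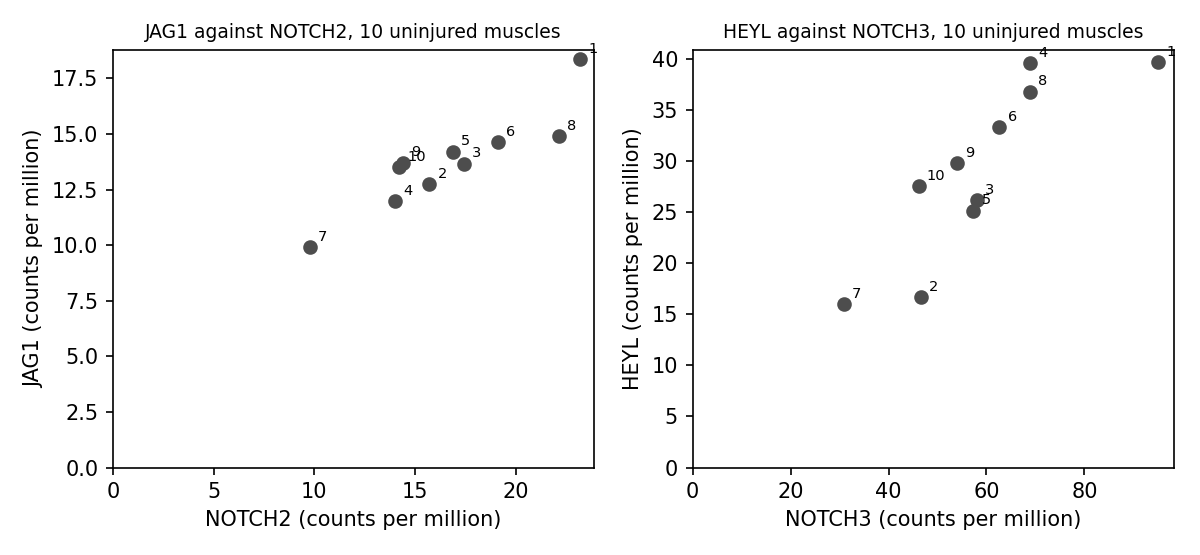
JAG1 against NOTCH2 and HEYL against NOTCH3 in CPM (linear axes from 0) in the 10 uninjured muscles, numbered by replicate. The 2 genes of each pair are correlated (r = 0.92 and 0.87), and replicate 7 (9.78 CPM of NOTCH2, 30.8 CPM of NOTCH3) and replicate 1 (23.2 and 95.05 CPM) mark the ends.

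DLK1 belongs to the imprinted genes, of which 12 of 18 listed had a row. RTL1 and DIO3 of the same imprinted domain were at or below 0.556 and 0.968 CPM in every library. Like DLK1, several imprinted genes had short-term values above the long-term ones. In repair libraries 5 of the 8 tested fell in the long term and 0 rose, where 27.9% of all genes fell: MEST (-3.51, SE 0.76), PLAGL1 (-2.24, SE 0.46), SGCE (-2.10, SE 0.45), NNAT (-2.32, SE 0.63) and IGF2R (-0.61, SE 0.21). With the gel, where 26.5% of all genes fell, 6 of 8 fell and 0 rose, among them MEST (-4.61, SE 0.80), PLAGL1 (-3.02, SE 0.48), PEG10 (-3.79, SE 0.69) and PEG3 (-3.73, SE 0.75). The list's median was -1.66 with repair and -2.85 with the gel, beside -0.11 and -0.09 for all genes. Fibro-adipogenic markers had medians of -1.56 with repair and -1.01 with the gel (5 of 8 fell in each), and macrophage markers medians of -2.18 and -3.69 (5 and 7 of 7 fell). Their part in the differences of the imprinted genes was not tested. The list was drawn up with earlier results of these data known.

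For gel against repair and for repair against injury in the short term, edgeR called 0 of the 9 imprinted genes tested (background 0%). In each of these comparisons 1 of the 9 stood at an unadjusted p under 0.05, beside 1404 and 1973 of all 13526 genes. MEST, a hydrolase family gene of mesoderm, was at 35.4, 30.8, 90.9, 7.82 and 4.97 CPM with the gel, 22.5, 19.6, 14.2, 0.798 and 76.6 CPM after repair only, and 1.42, 2.69, 18.0 and 1.41 CPM with injury only. PLAGL1, a zinc finger regulator of imprinted genes in mice, was at 21.1, 24.2, 45.0, 10.3 and 9.69 CPM with the gel, 50.3, 21.96, 14.3, 2.99 and 15.7 CPM after repair only, and 2.21, 4.83, 17.9 and 4.17 CPM with injury only. For both genes injury replicate 3 lay within the gel and repair range, while the other injury libraries lay below every gel library. DLK1 in that injury library was 0.149 CPM, from 4 counts. This lay below every repair library and, as the choice of the gene fixes, below every gel library. Repair replicate 5 held the most MEST of its group and 0.392 CPM of DLK1, so the genes did not share their order among repair libraries. Over the 14 short-term libraries, Spearman rho with DLK1 was 0.61 for MEST, 0.57 for PLAGL1, 0.48 for NNAT and 0.30 for SGCE. For SGCE injury replicate 3, at 58.0 CPM, lay above every gel library (36.3 CPM at the highest).

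**Figure D5:**
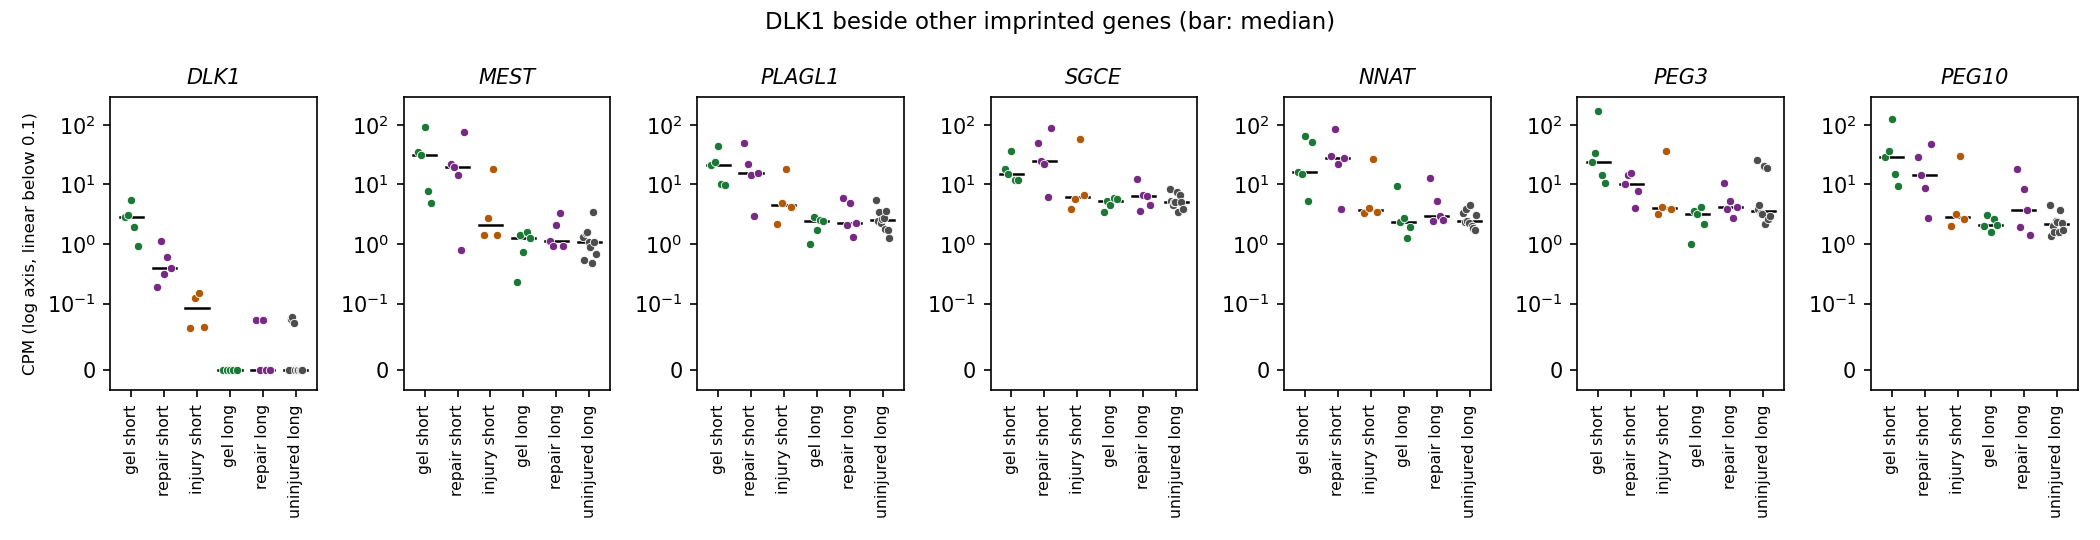
DLK1 and 6 other imprinted genes in CPM, on a log axis that is linear below 0.1, for each library by treatment and term; bars are medians. DLK1 alone of these has libraries at 0, and injury replicate 3 is the high injury point of MEST (18.0) and PLAGL1 (17.9).

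The genes whose levels ranked most like DLK1 over all 34 libraries were MIS18A, a centromere assembly factor (Spearman rho 0.83), FANCI, a DNA repair gene (0.81), DNAI1, an axonemal dynein chain (0.78), TGM5, a transglutaminase (0.78), and GALNT6, a glycosyltransferase (0.78). These values mostly order short-term over long-term libraries. Within the 14 short-term libraries, an analysis added after seeing the data, the first were LCA5L (0.93), ABHD11 (0.90), MRPS16 (0.88), ATXN7L2 (0.88) and HSD17B10 (0.88). DLK1 was picked for gel over injury in these libraries, so this ranking favours genes that run the same way. ATXN7L2, of the ataxin 7 family, averaged 47.5 ± 20.3 CPM with the gel, 14.01 ± 7.11 CPM with repair only and 9.21 ± 5.84 CPM with injury only (SD, n = 5, 5 and 4). MRPS16, a mitochondrial ribosomal protein, averaged 71.7 ± 11.8, 60.2 ± 9.66 and 43.8 ± 5.37 CPM in those groups. Over the 20 long-term libraries the ranking rests on the 5 libraries with 1 count of DLK1; it was led by NDRG2, TGM5, DBX1, CASP1 and the fringe gene LFNG (0.83 to 0.79). Of the canonical Notch genes, HEYL had the highest rho with DLK1 in the short term (0.60) and HEY1 the lowest (-0.63). All are descriptions over libraries that share treatment, depth and counting step, and the short-term values also carry the choice of DLK1.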

How the data were processed

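Each library's deposited file held whole-number counts, 1 per gene, without normalization. Per the labels' protocols, a company extracted the RNA and made the libraries. The submitters' processing notes name OryCun2.0, STAR and edgeR; for versions, counting tool, read pairing, strand and annotation the entry is: not given in the sources used here. Therefore overlapping genes and near-identical copies cannot be told apart. Of 18210 entries per file, 26 with date-like names were dropped (0.163% of a library or less), and repeated symbols were summed. A RefSeq table of rabbit assembly mOryCun1.1 gave symbols to 578 LOC identifiers and was used for names only. No sequence of the members was printed, as no genome or sequence table was used here. No 2 libraries of a group were identical (0 of 91 pairs).

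Counts were fitted in R 4.3.3 with edgeR 4.0.16 (TMM, filterByExpr with a minimum count of 10, robust quasi-likelihood test), over the 14 short-term libraries (13526 genes), the 20 long-term (11605) and all 34 (12935). Intervals cover counting or sample error only, as no molecular identifiers are described. Adjusted p-values are Benjamini-Hochberg over all genes, 2-sided, threshold 0.05; SEs are the log2 difference over the root of the F statistic. The fits were tested on simulated data. CPM used library totals; correlations used log2 CPM with a prior count of 2 and 100000 permutations. Alternatives were DESeq2 1.42.0, its size factors, limma 3.58.1 voom with sample weights, no filter, only the groups compared, replicate blocks, and libraries left out; short-term counts divided by 2 were added after seeing the data.

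All members, the likeness rule and the lists were chosen with earlier results of these data known. Every member is named; of the other lists the called genes with the smallest adjusted p, up to 4 per list and direction, are, except that some called genes are not reported here. The codes in the files' names were treated as marking the animal: deviations from group means correlated above 0.1 in 6 of 10 pairs (-0.198 to 0.335). These were 4 of 5 repair pairs and 2 of 5 gel pairs, and the gel pairs ranged from -0.198 to 0.166. The title numbers also gave 2 of 5 for the gel, so the check does not bear out the code for gel pairs.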

Additional observations from a re-analysis of the deposited data

Results flagged for a closer look

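Among 45 combinations of gene and group with 4 to 10 libraries, 5 held a library far from the rest of its group, where chance alone marks about 1 in 20. Injury replicate 3 of the short term had 73.7 CPM of NOTCH3, with 17.6 to 27.2 CPM in the other injury libraries. The same library had 28.4 CPM of JAG1, with 5.08 to 9.01 CPM in the others. It also had the highest summed endothelial (989 CPM), mural (1164 CPM) and fibro-adipogenic (9908 CPM) markers of its group, and their part in its NOTCH3 and JAG1 levels was not tested.

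Gel replicate 2 of the long term had 14.3 CPM of DLL4, with 8.06 to 9.52 CPM in the other gel libraries, and 23.8 CPM of HES1, with 14.5 to 16.7 CPM in the others. Without it the long-term gel minus repair difference of DLL4 was 0.53. Repair replicate 1 of the short term had 36.8 CPM of HEY1, with 6.35 to 12.4 CPM in the other repair libraries.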

How the results depend on the processing

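NOTCH2 and NOTCH3 kept their direction and call between terms under all 15 alternatives, with repair and with the gel. Among these, short-term counts divided by 2 gave NOTCH2 -1.36 and NOTCH3 0.844 with repair, and -1.25 and 0.808 with the gel. That setting rescales the counts and does not part term from depth. No alternative left out the scaling between libraries. HEY1 with repair was no longer called under limma voom (-0.337). Counts of genes called moved most. DESeq2 called 788, 127, 231, 7, 234, 17 and 28 genes for gel against injury, gel against repair and repair against injury in the short term, gel against repair, repair against uninjured and gel against uninjured in the long term, and the interaction. Limma voom called 3817, 3, 4716, 27 and 5 for gel against injury, gel against repair and repair against injury in the short term, repair against uninjured, and the interaction. Without injury replicate 3 and repair replicate 4 of the short term, 2577, 13 and 4556 genes were called in the 3 short-term comparisons. With only the groups compared, 7 genes were called for gel against injury and 63 for repair against uninjured. Members called for repair against injury were 1 (NOTCH2) without those 2 libraries and 1 under limma voom. Leaving out 1 library gave 0 to 382, 0 to 2 and 0 to 34 genes in the short-term comparisons, 0 to 319 for repair and 0 to 1 for gel against uninjured, and 2 to 9 for the interaction. The causes were not tested.

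With a replicate block by animal code, or by the number in the titles, 0 genes were called for repair and 0 for gel against uninjured muscle, and no member's call changed. The title numbers did not pair the samples (r above 0.1 in 9 of 28 pairs, from -0.401 to 0.413). Under the block by animal code these uncalled differences changed sign: gel against repair NOTCH3 -0.0296 and HEY1 -0.14; repair against uninjured NOTCH3 0.0222 and HEY1 0.0722; gel against uninjured NOTCH3 -0.00742, JAG1 0.0168, DLL4 -0.106 and HEY1 -0.0674. Under the title block they were HES1 0.0508 for repair against injury, HEY1 0.00146 for repair and NOTCH3 -0.128 for gel against uninjured.

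The other changes of sign were of uncalled values. Under limma voom they were HES1 -0.0285 (gel against repair, short term); NOTCH3 0.293, HES1 0.416 and HEYL 0.0132 (repair against injury); NOTCH3 -0.0127 (gel against repair, long term); HEY1 0.0825 (repair against uninjured); NOTCH2 0.0828, NOTCH3 -0.0339, JAG1 0.0247 and HES1 0.182 (gel against uninjured); and HEY1 0.0256 (gel between terms). NOTCH3 was 0.296 for repair against injury without the 2 libraries. For gel against uninjured NOTCH2 was 0.00678 with DESeq2 and 0.00642 with its size factors. Without gel replicate 1 of the long term, NOTCH3 was -0.0352 against repair, and NOTCH2 0.0582, NOTCH3 -0.0898, JAG1 0.0224 and HEYL -0.0121 against uninjured.

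Leaving out 1 library, the ranges of differences that changed sign were as follows. For gel against repair in the short term they were -0.101 to 0.244 for DLL4 and -0.0479 to 0.189 for HES1. For repair against injury they were -0.182 to 0.205 for NOTCH3, -0.00887 to 0.546 for JAG1, -0.0236 to 0.322 for DLL4, -0.395 to 0.249 for HES1 and -0.656 to 0.0875 for HEY1. For gel against repair in the long term they were -0.0352 to 0.159 for NOTCH3, -0.594 to 0.0252 for HES1 and -0.154 to 0.195 for HEY1. For repair against uninjured they were -0.144 to 0.0254 for NOTCH3, -0.0478 to 0.572 for HES1 and -0.163 to 0.0525 for HEY1. For gel against uninjured they were -0.0553 to 0.0582 for NOTCH2, -0.0898 to 0.0908 for NOTCH3, -0.0544 to 0.0224 for JAG1, -0.00689 to 0.226 for DLL4, -0.152 to 0.125 for HES1, -0.156 to 0.123 for HEY1 and -0.0121 to 0.254 for HEYL. Between terms with the gel HEY1 ran from -0.205 to 0.12. For the interaction they were -0.0308 to 0.321 for NOTCH2, -0.178 to 0.0803 for NOTCH3, -0.601 to 0.0284 for HES1 and -0.166 to 0.19 for HEYL. None of these differences was called with all libraries.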

Other observations

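Myogenic and regenerating fibre genes, of which 7 of 10 listed had a row, were tested beside DLK1. In the short term edgeR called 0 of the 7 for gel against repair, with a median log2 difference of 0.92, beside -0.04 for all genes. At an unadjusted p under 0.05 stood 2 of the 7, beside 1404 of all 13526 genes. Between terms 4 of the 7 fell with repair in the long term, where 27.9% of all genes fell, among them MYOG (-1.30, SE 0.25, adjusted p = 0.000127), the myogenic factor of differentiation, NCAM1 (-2.28, SE 0.55, adjusted p = 0.00132), a surface protein of regenerating fibres, and MYOD1 (-1.24, SE 0.39, adjusted p = 0.0101), the myogenic factor of activated satellite cells. MYH3 went the other way with repair (1.46) and was not called. With the gel 6 of the 7 fell, MYH3 among them (-2.24), where 26.5% of all genes fell. The list was chosen with earlier results of these data known, and term cannot be told apart from depth and counting step.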
